A study of Homo sapiens with 30 samples.

Results

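RUES2 human embryonic stem cells that had received Wnt3a together with the BET inhibitor CPI-203 on day 1 and Activin A on day 2 (the group WNT_CPI_ACT) were compared with cells that had received only Activin A on day 2 (the group E7_ACT). The 4 RNA-seq libraries, 2 per group, were chosen by their labels from the 16 RNA libraries among the 30 samples of the series, and all were collected at 48 h. RUES2 is an established embryonic stem cell line, grown here in TeSR E7 medium with a ROCK inhibitor in every group, so all values come from 1 line. Wnt3a was given at 100 ng/mL, CPI-203 at 1 µM and Activin A at 10 ng/mL. Both sides of the comparison thus share the Activin A day, and they differ by a day-1 treatment that joins Wnt3a and CPI-203. No 48 h group had CPI-203 without Wnt3a, so the parts of the 2 agents cannot be told apart within this comparison. The group WNT_ACT, with the same Wnt3a and Activin A days but no CPI-203, is set beside it, as are the groups collected at 24 h, before Activin A: E7 (untreated) and WNT_CPI (Wnt3a and CPI-203). The labels number the replicates but do not say whether they were separate cultures. The p-values rest on a spread estimated over the 15 fitted libraries of 8 groups, after the difference between replicate numbers was taken out. That spread may be technical.

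Wnt ligands stabilise beta-catenin, which acts with TCF and LEF factors on target genes. Activin A and Nodal act through SMAD proteins and their DNA-binding partner FOXH1, and they induce feedback inhibitors such as LEFTY1. In pluripotent cells the pathways together drive the primitive streak and the endoderm that arises from it. BET proteins, among them BRD2, bind acetylated histones and help release RNA polymerase into elongation, and CPI-203 keeps them from the acetyl-lysine mark.

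The libraries held 39474994 to 42708602 counts each. Embryonic stem cell markers were present in all 4. POU5F1, a core pluripotency factor, stood at 882 and 979.5 CPM in E7_ACT and 552 and 558 CPM in WNT_CPI_ACT, where each pair of values gives replicate 1 and then replicate 2, and CPM are counts scaled to the TMM-adjusted library totals (1e6 counts each). LIN28A, an RNA-binding protein of pluripotent cells, stood at 1479 and 2236 CPM in E7_ACT and 1642 and 2204 CPM in WNT_CPI_ACT, and SOX2 at 282 and 346 CPM in E7_ACT and 394 and 402 CPM in WNT_CPI_ACT. DNMT3B, a DNA methyltransferase, stood at 3088 and 3431 CPM in E7_ACT and 1557 and 1505 CPM in WNT_CPI_ACT, and the surface protein PODXL at 2344 and 2856 CPM in E7_ACT and 1906 and 3595 CPM in WNT_CPI_ACT. In bulk libraries, fewer cells of a type and less RNA per cell cannot be told apart.

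A gene was called when its Benjamini-Hochberg adjusted p from edgeR's quasi-likelihood test was under 0.05. Of 17793 genes tested, 5695 were called, which is 32% and the background for every count of list members below: 2655 were higher in WNT_CPI_ACT (14.9%) and 3040 were lower (17.1%). Most differences were small: 955 of the higher and 1484 of the lower genes differed by more than 1 on the log2 scale, and 189 and 241 by more than 3. The fit carried the replicate number as a block, because libraries of the same number deviated together. Without the block, 1894 genes were called (771 higher and 1123 lower). The groups did not overlap in CPM for 4804 of the called genes (84.4%), beside 44.3% of all genes tested. Leaving out E7_ACT replicate 1 left 3535 calls and leaving out E7_ACT replicate 2 left 3472. Of the 5695 genes, 2510 were called in each of the 4 fits that left out 1 library (44.1%).

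The 3 genes given as markers of the comparison had large differences. GAD1 (Entrez gene 2571), the enzyme that makes the transmitter GABA, stood at 0.675 and 0.305 CPM in E7_ACT and 92.5 and 45.5 CPM in WNT_CPI_ACT. Both libraries with the day-1 treatment were far above both without it. Its means were 0.49 ± 0.261 CPM (SD, n = 2) in E7_ACT and 69 ± 33.3 CPM (SD, n = 2) in WNT_CPI_ACT, with log2 fold change 7.13, SE 0.20, adjusted p = 3.74e-08. STMN2 (Entrez gene 11075), a regulator of microtubules in growing axons, stood at 0.265 and 0.33 CPM in E7_ACT and 27.5 and 101 CPM in WNT_CPI_ACT. The WNT_CPI_ACT libraries differed from each other in this gene, and the lower of them was still far above E7_ACT (log2 fold change 7.69, SE 0.74, adjusted p = 4.31e-05). LEFTY1 (Entrez gene 10637), a secreted inhibitor of Nodal that Nodal and Activin signalling itself induces, stood at 374 and 243 CPM in E7_ACT and 6.25 and 0.267 CPM in WNT_CPI_ACT. It was high in both E7_ACT libraries and low in both WNT_CPI_ACT libraries (log2 fold change -6.80, SE 1.18, adjusted p = 0.00157). Without WNT_CPI_ACT replicate 1 the log2 fold change of LEFTY1 was -9.82, and without WNT_CPI_ACT replicate 2 it was -5.90.

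WNT_ACT, the group without CPI-203, placed the 3 markers differently. Between WNT_CPI_ACT and WNT_ACT 20.2% of all genes tested were called, 8.13% as higher in WNT_CPI_ACT. GAD1 was nearly as high there as with the inhibitor, at 68 and 30.9 CPM, and WNT_CPI_ACT exceeded it by 0.50 on the log2 scale (SE 0.13, adjusted p = 0.0233). STMN2 was low in WNT_ACT, at 0.642 and 0.926 CPM, and WNT_CPI_ACT exceeded it by 6.31 (SE 0.66, adjusted p = 0.000193). LEFTY1 stood between the other groups in WNT_ACT, at 198 and 36.7 CPM, and its difference from E7_ACT was not called (adjusted p = 0.291). At 24 h LEFTY1 was at 0.191 and 0.0959 CPM in E7 and 0.122 and 0.0488 CPM in WNT_CPI, near the floor of 3 counts on both sides. GAD1 and STMN2 were already high in WNT_CPI at 24 h, at 97.3 and 43.5 CPM and at 107 and 60.3 CPM. Neither was called for a change between the 24 h and the 48 h difference (adjusted p = 0.0953 and 0.799).

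**Figure D1:**
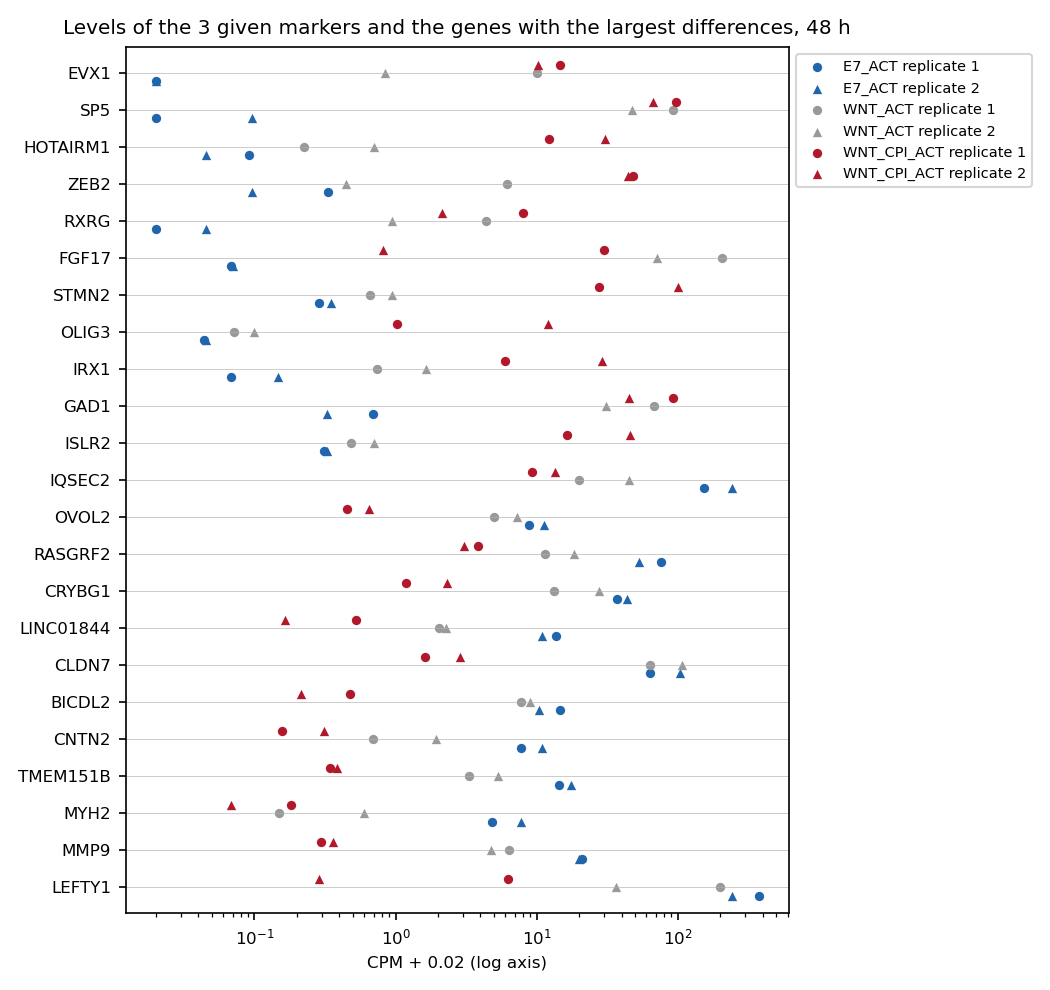
CPM plus 0.02 on a log axis, for each library of E7_ACT (blue), WNT_ACT (grey) and WNT_CPI_ACT (red), with circles for replicate 1 and triangles for replicate 2; the rows are genes with the largest rises and the 12 genes with the largest falls, the 3 given markers among them. In every row the red symbols do not overlap the blue ones, and the grey WNT_ACT symbols lie near red for SP5 and GAD1 and near blue for STMN2, OLIG3 and CLDN7.

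The genes with the largest rises, among those of at least 5 CPM in the higher group, included GAD1, STMN2 and the transcription factor genes EVX1, SP5, ZEB2, RXRG, OLIG3 and IRX1. EVX1, a homeobox factor of the posterior streak, had no count in either E7_ACT library and stood at 14.5 and 10.3 CPM in WNT_CPI_ACT, at least 167-fold higher against a floor of 3 counts per library (adjusted p = 0.00043). HOTAIRM1, a long noncoding RNA, stood at 0.0723 and 0.0254 CPM in E7_ACT and 12.2 and 30.6 CPM in WNT_CPI_ACT, a ratio of 427-fold (95% counting interval 167 to 1570.0) with an adjusted p of 0.000222. Strand use in the counting is not given in the sources used here, so its reads and those of overlapping genes cannot be told apart. In WNT_ACT, HOTAIRM1 stood at 0.205 and 0.688 CPM, and WNT_CPI_ACT exceeded WNT_ACT (adjusted p = 0.00143).

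SP5, a transcription factor and direct target of Wnt signalling, stood at 0 and 0.0762 CPM in E7_ACT and 96.5 and 66.9 CPM in WNT_CPI_ACT, a ratio of 2213-fold (95% counting interval 757 to 10730.0) with an adjusted p of 1.1e-06. ZEB2, a repressor of the E-cadherin gene, stood at 0.313 and 0.0762 CPM in E7_ACT and 48.3 and 44.4 CPM in WNT_CPI_ACT (log2 fold change 8.32, SE 1.09, adjusted p = 0.000264). RXRG, a retinoid X receptor, stood at 0 and 0.0254 CPM in E7_ACT and 7.94 and 2.11 CPM in WNT_CPI_ACT (ratio 413-fold (95% counting interval 73.8 to 16360.0), adjusted p = 5.1e-05). ISLR2, a membrane protein of neurons and their axons, stood at 0.289 and 0.305 CPM in E7_ACT and 16.3 and 45.6 CPM in WNT_CPI_ACT (log2 fold change 6.66, SE 0.76, adjusted p = 0.000114). It was not high at 24 h, at 0.514 and 0.342 CPM in WNT_CPI, nor in WNT_ACT, at 0.462 and 0.688 CPM.

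In 3 of the leading genes the WNT_CPI_ACT replicates stood far apart. FGF17, a ligand of the FGF8 subfamily, stood at 0.0482 and 0.0508 CPM in E7_ACT and 30.0 and 0.801 CPM in WNT_CPI_ACT (ratio 319.6-fold (95% counting interval 125 to 1175), adjusted p = 0.000742). WNT_ACT was higher still, at 204 and 71.3 CPM. Without WNT_CPI_ACT replicate 1 its log2 fold change was 4.84, and without E7_ACT replicate 1 the adjusted p was 0.0563. OLIG3, a helix-loop-helix factor of the dorsal neural tube, had the opposite order, at 0.0241 and 0.0254 CPM in E7_ACT and 1.01 and 12.1 CPM in WNT_CPI_ACT (ratio 258-fold (95% counting interval 71.1 to 2137), adjusted p = 0.00654). Its adjusted p was 0.0759 without E7_ACT replicate 2. IRX1, an Iroquois homeobox factor, stood at 0.0482 and 0.127 CPM in E7_ACT and 5.97 and 28.9 CPM in WNT_CPI_ACT (ratio 198-fold (95% counting interval 95.7 to 492), adjusted p = 0.000337). OLIG3 and IRX1 were higher in replicate 2 and FGF17 in replicate 1.

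Among called genes of at least 5 CPM in the higher group, LEFTY1 had the largest fall by log2 fold change. Most of the next falls had replicates close to each other. MMP9, a secreted gelatinase, stood at 21 and 19.9 CPM in E7_ACT and 0.276 and 0.34 CPM in WNT_CPI_ACT (log2 fold change -6.06, SE 0.41, adjusted p = 4.75e-06). CLDN7, a tight junction claudin, stood at 63.7 and 104 CPM in E7_ACT and 1.61 and 2.87 CPM in WNT_CPI_ACT (log2 fold change -5.25, SE 0.16, adjusted p = 4.62e-08). In WNT_ACT, CLDN7 was at 63.4 and 108 CPM, the level of E7_ACT, and WNT_CPI_ACT was lower than WNT_ACT by a log2 fold change of -5.27. OVOL2, a zinc finger factor that maintains epithelia, stood at 8.87 and 11.3 CPM in E7_ACT and 0.436 and 0.631 CPM in WNT_CPI_ACT (log2 fold change -4.25, SE 0.23, adjusted p = 1.14e-06). CNTN2, an axonal adhesion molecule, stood at 7.76 and 11 CPM in E7_ACT and 0.138 and 0.291 CPM in WNT_CPI_ACT (log2 fold change -5.44, SE 0.41, adjusted p = 9.08e-06). The other falls of this rank were of TMEM151B (-5.53), MYH2, a skeletal muscle myosin (-5.80), BICDL2 (-5.25), the noncoding RNA LINC01844 (-5.22), CRYBG1 (-4.56), the Ras exchange factor RASGRF2 (-4.26) and the Arf exchange factor IQSEC2 (-4.11), as log2 fold changes. MYH2 had 7 and 2 counts left in WNT_CPI_ACT, and its ratio was 58.6-fold (95% counting interval 30.6 to 129) in favour of E7_ACT. In WNT_ACT it was about as low, at 0.128 and 0.582 CPM, whereas IQSEC2 stood between at 20.1 and 45.2 CPM.

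SP5 and GAD1, among the leading rises, lie close together on chromosome 2 in the RefSeq annotation, with ERICH2 between them. Their promoters are shown because both genes were high in WNT_CPI_ACT and in WNT_ACT. The 250 bases before each start are from RefSeq on GRCh38.p14, on the plus strand, and capitals mark the motif words found.
SP5, chr2:170715087-170715336: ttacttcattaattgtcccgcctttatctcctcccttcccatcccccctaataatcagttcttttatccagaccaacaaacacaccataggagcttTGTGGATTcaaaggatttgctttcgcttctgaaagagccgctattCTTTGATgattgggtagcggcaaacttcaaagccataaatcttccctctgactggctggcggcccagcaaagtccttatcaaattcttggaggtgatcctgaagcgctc
GAD1, chr2:170816637-170816886: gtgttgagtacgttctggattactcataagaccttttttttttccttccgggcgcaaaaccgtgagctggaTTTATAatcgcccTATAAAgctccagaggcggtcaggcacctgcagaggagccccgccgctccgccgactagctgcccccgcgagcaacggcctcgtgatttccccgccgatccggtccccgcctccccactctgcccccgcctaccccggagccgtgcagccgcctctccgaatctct
The following short words were searched on both strands with overlaps allowed: AATCCACA, bound by FOXH1; CAGACA, bound by SMAD proteins; CTTTGAT, bound by TCF and LEF; and the TATA box word TATAAA. The SP5 window holds the FOXH1 word once on the reverse strand, beginning 154 bases before the start, and the TCF and LEF word once, 109 bases before it. The GAD1 window holds the TATA word on each strand, 179 and 166 bases before the start. Of all 27305 promoters of this length, 0.681% held the FOXH1 word, 13.6% the SMAD word, 2.28% the TCF and LEF word and 11.1% the TATA word. Of the genes tested, 13696 had a promoter sequence of this length, 2080 of the higher and 2340 of the lower genes among them. The TCF and LEF word was in 1.49% of these higher and 1.07% of these lower genes, beside 1.39% of the 13696. The FOXH1 word was in 4 promoters of the higher (0.192%), 11 of the lower (0.47%) and 46 of the 13696 (0.336%), too few to compare the shares. A match is a description and not a binding site.

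GAD1's 4 nearest tested neighbours on the SP5 side all rose with it, beside 14.9% of all genes tested. LINC01124, with no count in E7_ACT, and SP5, with 0 and 3, passed the filter on low counts through other groups. LINC01124 could thus only be called higher. ERICH2-DT stood at 0.313 and 0.356 CPM in E7_ACT and 3.49 and 2.84 CPM in WNT_CPI_ACT (log2 fold change 3.23, SE 0.31, adjusted p = 4.35e-05). LINC01124 had no count in E7_ACT and stood at 2.98 and 2.14 CPM in WNT_CPI_ACT, at least 34.5-fold higher (adjusted p = 1.63e-05). ERICH2, which lies between SP5 and GAD1, stood at 5.13 and 5.46 CPM in E7_ACT and 27.7 and 22.5 CPM in WNT_CPI_ACT (log2 fold change 2.25, SE 0.14, adjusted p = 2.85e-06). On the other side, GORASP2 (154 and 182 CPM in E7_ACT and 174 and 174 CPM in WNT_CPI_ACT) and TLK1 (122 and 68.8 CPM in E7_ACT and 128 and 65.7 CPM in WNT_CPI_ACT) were not called (adjusted p = 0.627 and 0.971). METTL8, the next gene, fell by 0.55 on the log2 scale (adjusted p = 0.00794, 0.382 without the block). All 5 risen genes were also high in WNT_ACT: ERICH2 stood at 20 and 23.3 CPM there and LINC01124 at 2.57 and 1.85 CPM. Beside LEFTY1, TMEM63A fell and stood at 301 and 196 CPM in E7_ACT and 47.2 and 16.4 CPM in WNT_CPI_ACT (log2 fold change -3.00, SE 0.53, adjusted p = 0.00167). LEFTY2, EPHX1, SRP9, ENAH and SDE2, also close to LEFTY1, were not called. Around STMN2, HEY1 fell by 3.63, while ZBTB10, TPD52 and PKIA rose by 1.57, 0.47 and 0.50 on the log2 scale. These neighbours were chosen by position after the values of the markers were seen.

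**Figure D2:**
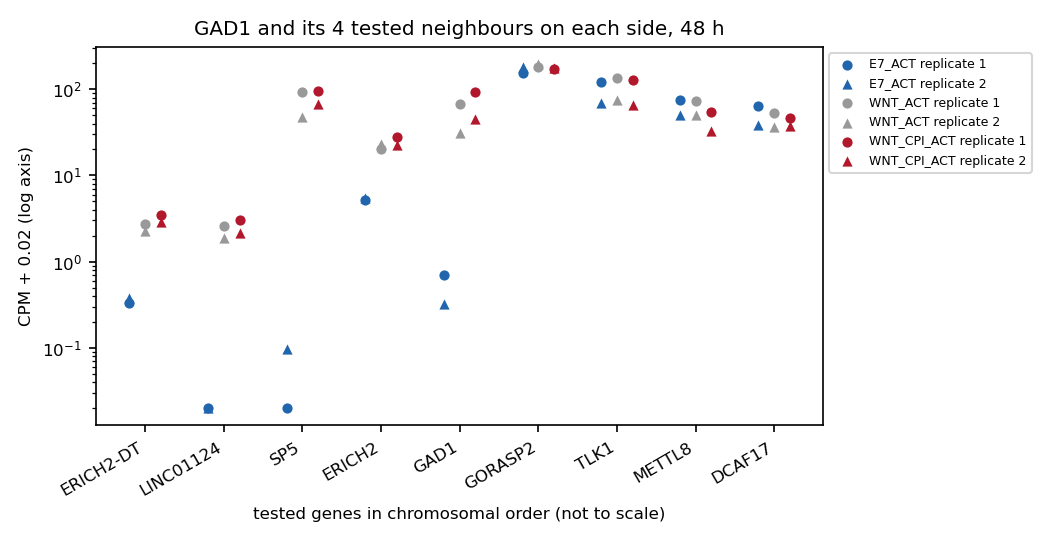
CPM plus 0.02 on a log axis for GAD1 and its 4 tested neighbours on each side, in chromosomal order and not to scale, in each library of E7_ACT (blue), WNT_ACT (grey) and WNT_CPI_ACT (red). The 5 genes from ERICH2-DT to GAD1 are higher in all red and grey libraries than in all blue ones, and GORASP2 and TLK1 overlap.

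Pathways and cell types were examined with gene lists. A list is described by how many of its tested members rose or fell and by its median log2 fold change, beside a median of 0.0042 over all genes tested.

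**Figure D3:**
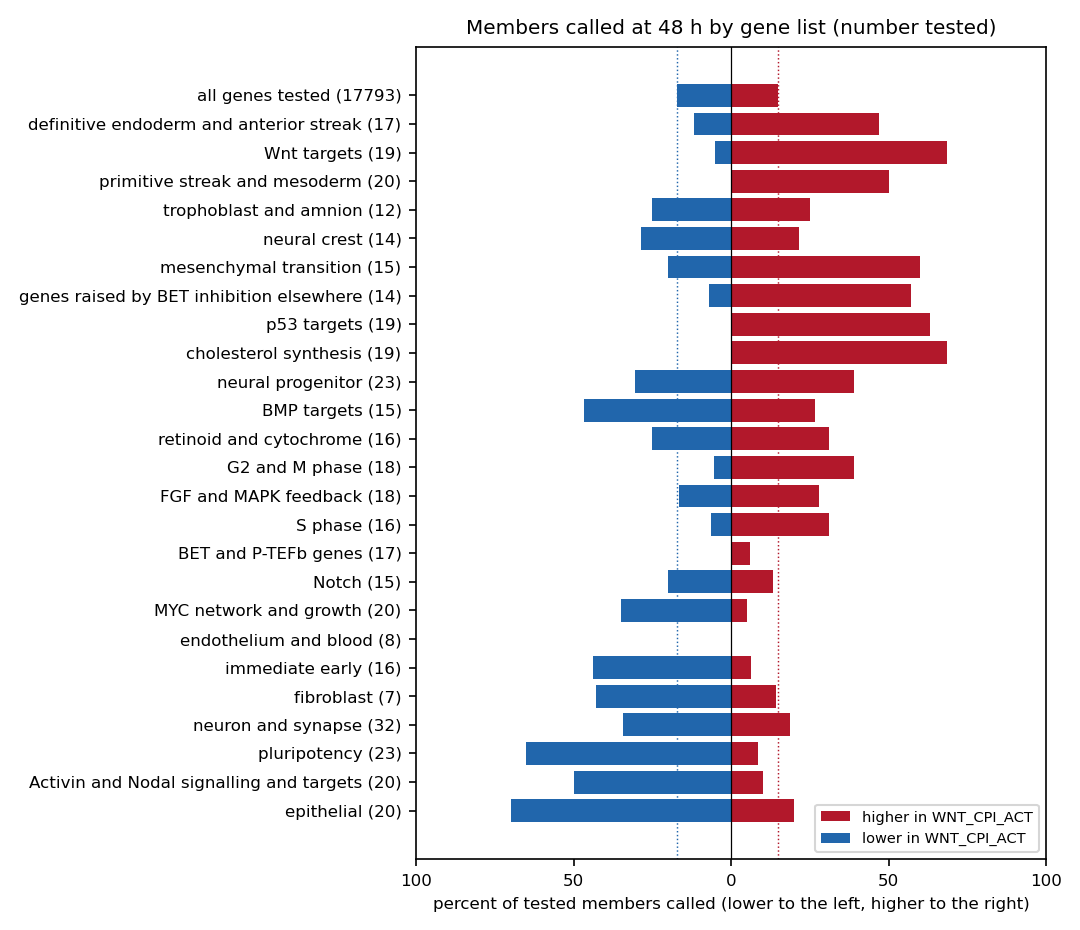
Percent of the tested members of each gene list other than the HOX genes that were called lower (blue, to the left) or higher (red, to the right) in WNT_CPI_ACT than in E7_ACT, ordered by the median log2 fold change of the list, with the number tested in parentheses. The dotted lines mark all genes tested, 17.1% lower and 14.9% higher; epithelial, Activin and Nodal, and pluripotency genes extend farthest to the left, and Wnt targets and cholesterol synthesis genes farthest to the right.

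Of 20 Activin and Nodal genes tested, 10 fell and 2 rose, with a median of -1.27. Without the block 6 fell and 1 rose. Without each library in turn 7 to 11 fell, and 1 rose when either E7_ACT library was left out. The median was -2.08 without WNT_CPI_ACT replicate 1. Among the ligands, NODAL itself stood at 64 and 41.5 CPM in E7_ACT and 18.2 and 1.31 CPM in WNT_CPI_ACT and was not called (adjusted p = 0.0601); without WNT_CPI_ACT replicate 1 its log2 fold change was -5.46 with an adjusted p of 0.00377. GDF3, another ligand of this family, was not called either (26.6 and 36.3 CPM in E7_ACT and 86.2 and 22.4 CPM in WNT_CPI_ACT; adjusted p = 0.277), except as higher without WNT_CPI_ACT replicate 2 (adjusted p = 0.00276). Both ligands were thus lower in replicate 2 of WNT_CPI_ACT than in replicate 1.

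The inhibitors and targets of the pathway carried most of the falls. SMAD7, the inhibitory SMAD that Activin signalling induces, stood at 117 and 106 CPM in E7_ACT and 13.5 and 11.9 CPM in WNT_CPI_ACT (log2 fold change -3.13, SE 0.39, adjusted p = 0.000187). PMEPA1, a membrane inhibitor of SMAD activation, stood at 61.6 and 54.5 CPM in E7_ACT and 14.2 and 11.1 CPM in WNT_CPI_ACT (log2 fold change -2.19, SE 0.39, adjusted p = 0.00184). BAMBI, a decoy receptor, stood at 36.6 and 48.5 CPM in E7_ACT and 12.3 and 8.16 CPM in WNT_CPI_ACT (log2 fold change -1.995, SE 0.40, adjusted p = 0.00341). In these 3 genes both WNT_CPI_ACT libraries were below both E7_ACT libraries. SKIL, a SMAD corepressor, stood at 343 and 188 CPM in E7_ACT and 94.7 and 21.7 CPM in WNT_CPI_ACT (log2 fold change -2.28, SE 0.44, adjusted p = 0.00297; -3.42 without WNT_CPI_ACT replicate 1). LEFTY2, the second Lefty inhibitor, stood at 142 and 128 CPM in E7_ACT and 43.3 and 1.02 CPM in WNT_CPI_ACT and was not called (adjusted p = 0.0916), but without WNT_CPI_ACT replicate 1 it was (-7.22, adjusted p = 0.00186).

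FST, which encodes follistatin, a protein that binds and inactivates Activin, moved the other way. It stood at 16.9 and 10.4 CPM in E7_ACT and 513 and 585 CPM in WNT_CPI_ACT (log2 fold change 5.37, SE 0.35, adjusted p = 3.99e-06). Both WNT_CPI_ACT libraries were above both E7_ACT libraries, and WNT_ACT stood between them at 85.5 and 70.0 CPM. FOXH1 fell from 36.3 and 63.1 CPM to 29.5 and 33 CPM (log2 fold change -0.61, SE 0.16, adjusted p = 0.0157), a call that was lost without the block (adjusted p = 0.344), without WNT_CPI_ACT replicate 2 (-0.39, adjusted p = 0.15) and without E7_ACT replicate 2 (adjusted p = 0.171).

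A day after the Wnt3a treatment, 13 of 19 Wnt target genes tested were higher and 1 was lower, with a median of 2.09. Of the 13, 12 were higher in both pairs of replicates. The other was DKK4, with 939 and 0 counts in WNT_CPI_ACT and none in E7_ACT, so that it could only be called higher. Without the block 12 were higher and none lower. AXIN2, a scaffold of the complex that degrades beta-catenin and a classical feedback target, stood at 18.1 and 23.8 CPM in E7_ACT and 82.3 and 69.8 CPM in WNT_CPI_ACT (log2 fold change 1.85, SE 0.20, adjusted p = 7.17e-05). LEF1, which brings beta-catenin to DNA, stood at 0.434 and 0.229 CPM in E7_ACT and 14.1 and 19.5 CPM in WNT_CPI_ACT (log2 fold change 5.76, SE 0.47, adjusted p = 1.63e-05), and its relative TCF7 at 12.3 and 15.1 CPM in E7_ACT and 30.2 and 58.3 CPM in WNT_CPI_ACT (log2 fold change 1.67, SE 0.21, adjusted p = 0.000187). All 3 were higher in both WNT_CPI_ACT libraries. The feedback inhibitors rose as well: RNF43, which removes Frizzled receptors, by 2.91, NKD1 by 2.09 and APCDD1, a membrane inhibitor, by 4.71 on the log2 scale. WNT8A, a ligand, stood at 0.193 and 0.0762 CPM in E7_ACT and 4.89 and 15.6 CPM in WNT_CPI_ACT (log2 fold change 6.34, SE 0.88, adjusted p = 0.000379), and the receptor FZD10 at 1.61 and 1.02 CPM in E7_ACT and 11.6 and 5.8 CPM in WNT_CPI_ACT (log2 fold change 2.69, SE 0.26, adjusted p = 4.51e-05). In WNT_ACT 13 of the 19 were higher than in E7_ACT, beside 6.49% of all genes tested. AXIN2 and SP5 did not differ between WNT_CPI_ACT and WNT_ACT beyond the test (adjusted p = 0.829 and 0.551). LEF1 stood at 3.93 and 2.8 CPM in WNT_ACT and was higher with CPI-203 (2.42, adjusted p = 0.00137).

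Endoderm and primitive streak genes set the WNT_CPI_ACT replicates apart. Of 17 definitive endoderm and anterior streak genes tested, 8 were called higher and 2 lower, but only 3 of the 8 were higher in both pairs of replicates. SOX17 and DKK4 had no count in E7_ACT, so they passed the filter on low counts through other groups and could only be called higher. The summed CPM of the list was 122 and 101 in E7_ACT, 411 and 53.2 in WNT_CPI_ACT and 3169 and 406 in WNT_ACT. Replicate 1 of WNT_CPI_ACT thus exceeded E7_ACT, and replicate 2 was below it. Without WNT_CPI_ACT replicate 1, 2 members were higher and 4 lower; without WNT_CPI_ACT replicate 2, 11 were higher and 2 lower; without E7_ACT replicate 1, 1 was higher; without E7_ACT replicate 2, 5 were; and without the block 2 were higher and 2 lower.

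Single genes of the list showed the same split. SOX17, the endoderm SOX factor, had no count in either E7_ACT library and stood at 5.99 and 0 CPM in WNT_CPI_ACT. GATA6 stood at 0.0482 and 0.0762 CPM in E7_ACT and 9.69 and 0.0486 CPM in WNT_CPI_ACT, and DKK4, a secreted Wnt inhibitor, at 0 and 0 CPM in E7_ACT and 21.6 and 0 CPM in WNT_CPI_ACT. FOXA2, a pioneer factor of endoderm, stood at 0.819 and 0.152 CPM in E7_ACT and 11.7 and 0.121 CPM in WNT_CPI_ACT. None of the 4 was called without WNT_CPI_ACT replicate 1 (adjusted p = 1 for SOX17, 0.805 for GATA6, 1 for DKK4 and 0.469 for FOXA2, whose log2 fold change was then -1.32) or without the block (adjusted p from 0.101 to 0.182), nor without E7_ACT replicate 1 (adjusted p from 0.188 to 0.335). FOXA2 was also not called without E7_ACT replicate 2 (adjusted p = 0.151). CER1, a secreted inhibitor of Nodal, stood at 30.0 and 13.1 CPM in E7_ACT and 138 and 0 CPM in WNT_CPI_ACT and at 1974 and 123 CPM in WNT_ACT, and it was not called (adjusted p = 0.99). Without WNT_CPI_ACT replicate 1 it was lower (adjusted p = 0.0283).

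Of 20 primitive streak and mesoderm genes tested, 10 rose and none fell, with a median of 1.91; without the block 7 rose, and without E7_ACT replicate 1, 5 rose. Without WNT_CPI_ACT replicate 1 the median was 0.41, with 7 higher and 1 lower, and without E7_ACT replicate 2 it was 2.91, with 7 higher. EOMES, a T-box factor of the streak, was above E7_ACT in both WNT_CPI_ACT libraries (1.64 and 0.305 CPM in E7_ACT and 169 and 33.5 CPM in WNT_CPI_ACT; log2 fold change 6.56, SE 0.61, adjusted p = 3.58e-05). APLNR, the apelin receptor of early mesoderm, was too (0.482 and 1.19 CPM in E7_ACT and 76.3 and 53.6 CPM in WNT_CPI_ACT; log2 fold change 6.25, SE 0.50, adjusted p = 1.29e-05). CDX2, a caudal homeobox factor, stood at 0.0241 and 0.0254 CPM in E7_ACT and 2.2 and 0.437 CPM in WNT_CPI_ACT (ratio 54.4-fold (95% counting interval 14.7 to 454), adjusted p = 0.000356). EVX1, also of this list, had no count in E7_ACT, so it passed the filter through other groups and could only be called higher. TBXT, also called brachyury, was above E7_ACT mainly in replicate 1 (0.386 and 0.229 CPM in E7_ACT and 11.3 and 0.316 CPM in WNT_CPI_ACT; log2 fold change 3.89, SE 1.05, adjusted p = 0.0165), and its adjusted p was 0.757 without that library, with a log2 fold change of 0.39. It was also not called without E7_ACT replicate 1 (0.152), without E7_ACT replicate 2 (0.0689) or without the block (0.0613), all as adjusted p. MIXL1 was not called (4.58 and 3.99 CPM in E7_ACT and 66.9 and 2.45 CPM in WNT_CPI_ACT; adjusted p = 0.116); without WNT_CPI_ACT replicate 2 it was higher (3.62, adjusted p = 0.0124). In WNT_ACT the same T-box and MIXL1 genes were far higher: TBXT at 79.4 and 30.6 CPM, EOMES at 482 and 84 CPM and MIXL1 at 795 and 105 CPM, each above WNT_CPI_ACT by the test (adjusted p = 0.0099, 0.036 and 0.0221).

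Of 23 pluripotency genes tested, 15 fell and 2 rose, with a median of -0.74. Most falls were moderate. NANOG, a core homeobox factor, stood at 235 and 318 CPM in E7_ACT and 91.7 and 93.6 CPM in WNT_CPI_ACT (log2 fold change -1.54, SE 0.16, adjusted p = 7.38e-05). The fall of POU5F1 was -0.74 (SE 0.08, adjusted p = 0.000112) and that of DNMT3B -1.08 (SE 0.10, adjusted p = 3.08e-05) on the log2 scale. TERF1, a telomere protein abundant in stem cells, stood at 813 and 655 CPM in E7_ACT and 279 and 169 CPM in WNT_CPI_ACT (log2 fold change -1.72, SE 0.20, adjusted p = 0.000109). PRDM14, a transcriptional repressor expressed in pluripotent cells, stood at 116 and 100.0 CPM in E7_ACT and 38.3 and 48.7 CPM in WNT_CPI_ACT (log2 fold change -1.34, SE 0.23, adjusted p = 0.0014). KLF4 and TFCP2L1, factors tied to naive pluripotency, fell by 1.495 and 1.79 on the log2 scale. NR5A2, a nuclear receptor, was among the rises (12.5 and 14.6 CPM in E7_ACT and 58.8 and 81.2 CPM in WNT_CPI_ACT; log2 fold change 2.37, SE 0.21, adjusted p = 2.71e-05). SOX2 and LIN28A were not called (adjusted p = 0.142 and 0.586).

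Most epithelial genes fell: of 20 tested, 14 fell and 4 rose, with a median of -1.58. Without the block 13 fell and 1 rose, and 2 rose when any library but WNT_CPI_ACT replicate 1 was left out. CDH1, which encodes E-cadherin of adherens junctions, stood at 386 and 396 CPM in E7_ACT and 97.1 and 124 CPM in WNT_CPI_ACT (log2 fold change -1.83, SE 0.13, adjusted p = 6.58e-06). The groups did not overlap, and WNT_ACT stood with E7_ACT at 350.4 and 489.7 CPM. EPCAM, an epithelial adhesion molecule, stood at 248 and 252 CPM in E7_ACT and 75.3 and 60.3 CPM in WNT_CPI_ACT (log2 fold change -1.88, SE 0.11, adjusted p = 1.8e-06). CLDN4, a second tight junction claudin, stood at 9.18 and 26 CPM in E7_ACT and 0.344 and 1.84 CPM in WNT_CPI_ACT (log2 fold change -4.06, SE 0.43, adjusted p = 6.93e-05), and CDH3, P-cadherin, at 234 and 300.5 CPM in E7_ACT and 92.1 and 102 CPM in WNT_CPI_ACT (log2 fold change -1.46, SE 0.11, adjusted p = 7.7e-06). ST14, the membrane protease matriptase, stood at 65 and 80.0 CPM in E7_ACT and 6.27 and 9.49 CPM in WNT_CPI_ACT (log2 fold change -3.23, SE 0.12, adjusted p = 1.28e-07). The regulators of epithelial identity were lower too: GRHL2, a factor that activates junction genes, stood at 59.5 and 56.1 CPM in E7_ACT and 8.91 and 8.45 CPM in WNT_CPI_ACT (log2 fold change -2.73, SE 0.12, adjusted p = 2.98e-07). The splicing regulators ESRP1 and ESRP2 fell by 1.71 and 1.79 on the log2 scale. Among the exceptions, GRHL3, a relative of GRHL2, rose (0.94 and 1.12 CPM in E7_ACT and 2.92 and 5.58 CPM in WNT_CPI_ACT; log2 fold change 1.99, SE 0.23, adjusted p = 0.00012), and so did the keratin KRT8 (192 and 309.7 CPM in E7_ACT and 313 and 619.8 CPM in WNT_CPI_ACT; log2 fold change 0.86, SE 0.12, adjusted p = 0.000466), a call that was lost without the block (adjusted p = 0.253). Against WNT_ACT, 13 of the 20 epithelial genes were lower in WNT_CPI_ACT (12% of all genes tested were) and 1 was higher, while between WNT_ACT and E7_ACT 1 was lower and 2 were higher, near the 4.89% and 6.49% of all genes tested.

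Of 15 mesenchymal transition genes tested, 9 rose and 3 fell, with a median of 0.83; without the block 8 rose and none fell, and without E7_ACT replicate 2, 1 fell and the median was 1.29. VIM, the intermediate filament vimentin, stood at 23 and 41.5 CPM in E7_ACT and 335 and 387 CPM in WNT_CPI_ACT (log2 fold change 3.504, SE 0.38, adjusted p = 8.47e-05). Both WNT_CPI_ACT libraries were high, and WNT_ACT was at 46.2 and 25 CPM. ZEB1, the partner of ZEB2, stood at 0.265 and 0.0508 CPM in E7_ACT and 8.84 and 5.56 CPM in WNT_CPI_ACT (log2 fold change 5.60, SE 0.85, adjusted p = 0.000695), and SNAI2, a zinc finger repressor, at 0.193 and 0.61 CPM in E7_ACT and 5.9 and 6.19 CPM in WNT_CPI_ACT (log2 fold change 3.94, SE 0.40, adjusted p = 5.42e-05). CDH2, N-cadherin, stood at 95.7 and 79.2 CPM in E7_ACT and 407 and 245 CPM in WNT_CPI_ACT (log2 fold change 1.87, SE 0.29, adjusted p = 0.000791); it was similarly high in WNT_ACT, at 381 and 156 CPM. CDH11, a mesenchymal cadherin, rose by 1.69 on the log2 scale.

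**Figure D4:**
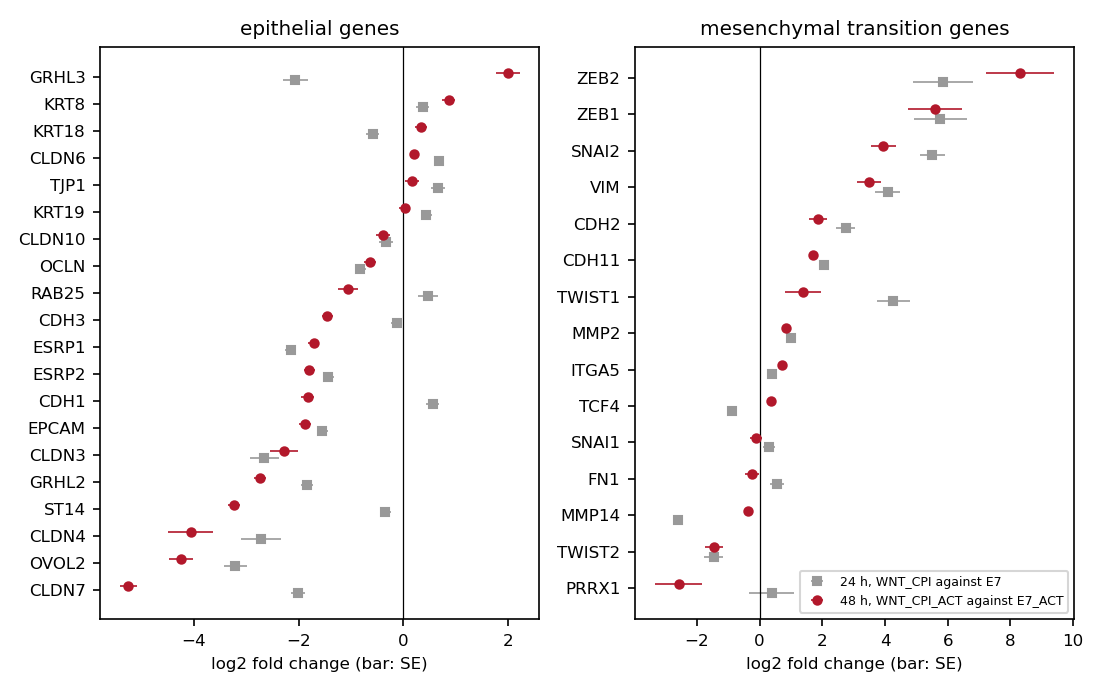
Log2 fold changes with their SE for the tested epithelial genes (left) and mesenchymal transition genes (right), at 48 h between WNT_CPI_ACT and E7_ACT (red) and at 24 h between WNT_CPI and E7 (grey). CLDN7, OVOL2, CLDN4 and ST14 have the largest epithelial falls at 48 h, CDH1 lies above 0 at 24 h and below it at 48 h, and ZEB2, ZEB1, SNAI2 and VIM are above 0 at both times.

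Regional neural factors included genes that rose, such as GBX2, and genes that fell, such as OTX1 and HESX1. Of 21 HOX genes listed, 9 passed the filter on low counts, and 8 of these had no count in either E7_ACT library, so they passed through groups other than E7_ACT and no count of rises is drawn from them. HOXB1, the most anterior gene of its cluster, is among these 8. It stood at 0 and 0 CPM in E7_ACT and 0.643 and 3.08 CPM in WNT_CPI_ACT. GBX2, a homeobox factor of the hindbrain and its border with the midbrain, stood at 1.11 and 1.78 CPM in E7_ACT and 91.5 and 173 CPM in WNT_CPI_ACT (log2 fold change 6.54, SE 0.68, adjusted p = 6.57e-05). It was low in WNT_ACT, at 3.34 and 4.97 CPM. MEIS1 and MEIS2, partners of HOX proteins, stood at 0.0482 and 0.127 CPM in E7_ACT and 1.75 and 1.72 CPM in WNT_CPI_ACT and at 0.0482 and 0.0762 CPM in E7_ACT and 1.38 and 9.81 CPM in WNT_CPI_ACT (adjusted p = 0.000132 and 0.00682). MEIS2 was not called without E7_ACT replicate 1 (adjusted p = 0.0634) or replicate 2 (adjusted p = 0.0528), and its log2 fold change was 3.94 without WNT_CPI_ACT replicate 2, beside 6.56. SOX9, a factor of neural crest and glial precursors, stood at 4.36 and 6.99 CPM in E7_ACT and 23.6 and 96.5 CPM in WNT_CPI_ACT (log2 fold change 3.34, SE 0.60, adjusted p = 0.00204; 2.06 without WNT_CPI_ACT replicate 2). The forebrain factors OTX1 and HESX1 fell. OTX1 stood at 0.819 and 1.4 CPM in E7_ACT and 0.0918 and 0.0971 CPM in WNT_CPI_ACT (log2 fold change -3.49, SE 0.51, adjusted p = 0.000548) and HESX1 at 15.2 and 10.2 CPM in E7_ACT and 2.53 and 0.801 CPM in WNT_CPI_ACT (log2 fold change -2.95, SE 0.40, adjusted p = 0.000353), while OTX2 was not called (36.7 and 21.5 CPM in E7_ACT and 12.4 and 0.243 CPM in WNT_CPI_ACT; adjusted p = 0.0807) but was lower without WNT_CPI_ACT replicate 1 (-6.82, adjusted p = 0.00138). Over the whole neural progenitor list of 23 tested genes, 9 rose and 7 fell, without the block 5 rose and 4 fell, and without E7_ACT replicate 2, 4 fell.

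GAD1 and STMN2 are genes of neurons, and more of the other neuronal genes fell than rose. Of 32 neuron and synapse genes tested, 6 rose, the 2 markers included, and 11 fell, with a median of -0.65; without the block 3 rose and 8 fell. Without WNT_CPI_ACT replicate 2 the median was -0.086, with 5 higher and 12 lower. GAD2, the second glutamate decarboxylase, fell (1.01 and 0.635 CPM in E7_ACT and 0.138 and 0 CPM in WNT_CPI_ACT; log2 fold change -3.51, SE 0.70, adjusted p = 0.00358), with no count in WNT_CPI_ACT replicate 2. SLC32A1, the vesicular GABA transporter, was near the floor on both sides (0.12 and 0.203 CPM in E7_ACT and 0.0689 and 0 CPM in WNT_CPI_ACT), and its difference was not called (adjusted p = 0.119), except without WNT_CPI_ACT replicate 1 (adjusted p = 0.0236). STMN3, a relative of STMN2, fell (54.6 and 60.5 CPM in E7_ACT and 14.8 and 20.8 CPM in WNT_CPI_ACT; log2 fold change -1.71, SE 0.15, adjusted p = 2.77e-05). SYP, the synaptic vesicle protein synaptophysin, stood at 6.67 and 7.88 CPM in E7_ACT and 0.39 and 0.825 CPM in WNT_CPI_ACT (log2 fold change -3.60, SE 0.26, adjusted p = 7.65e-06). CHGA, a secretory granule protein, fell by 1.60 on the log2 scale. TUBB3, a tubulin of young neurons, rose (183 and 285 CPM in E7_ACT and 369.7 and 509 CPM in WNT_CPI_ACT; log2 fold change 0.92, SE 0.11, adjusted p = 0.000131), a call that was lost without the block (adjusted p = 0.125).

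Genes known to rise under BET inhibitors were raised less at 48 h, a day after CPI-203, than at 24 h. Of 14 genes listed as raised by BET inhibition in other cells and tested, 8 were higher and 1 lower, with a median of 0.69; at 24 h, between WNT_CPI and E7, 13 were higher (26.8% of all genes tested were) and 1 lower, with a median of 2.42. For 12 of the 14 the 48 h difference was lower than the 24 h difference by the test, beside 15.7% of all genes tested. Without the block 4 were higher at 48 h and none lower. Without WNT_CPI_ACT replicate 2, 4 were higher, and without E7_ACT replicate 1, 5. HEXIM1, the inhibitor of the elongation kinase P-TEFb and a common readout of BET inhibition, stood at 59 and 73.1 CPM in E7_ACT and 81.7 and 98.1 CPM in WNT_CPI_ACT at 48 h (log2 fold change 0.45, SE 0.10, adjusted p = 0.00615) and at 73.3 and 87.9 CPM in E7 and 295 and 311 CPM in WNT_CPI at 24 h. Its 48 h call was lost without the block (adjusted p = 0.119), without WNT_CPI_ACT replicate 2 (0.0502) and without E7_ACT replicate 1 (0.0684). H2BC5, a histone gene with near-identical copies, stood at 3.54 and 2.92 CPM in E7_ACT and 15.9 and 13 CPM in WNT_CPI_ACT (log2 fold change 2.16, SE 0.11, adjusted p = 1.1e-06), down from 145 and 123 CPM in WNT_CPI, and H2BC12 rose by 1.29. Reads of these histone genes may be split among copies. TXNIP, an arrestin-like regulator of glucose uptake, was 1.87 higher (adjusted p = 0.0014), and SAT1, an enzyme of polyamine breakdown, was not called (-0.17, adjusted p = 0.196).

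BRD2, the gene of a BET protein, and CDK9, the gene of the P-TEFb kinase, did not pass the test. BRD2 stood at 330.2 and 279 CPM in E7_ACT and 329 and 329 CPM in WNT_CPI_ACT and CDK9 at 73.8 and 87.1 CPM in E7_ACT and 82.1 and 92.6 CPM in WNT_CPI_ACT (adjusted p = 0.344 and 0.315). Of 17 BET and P-TEFb genes tested, HEXIM1 was the 1 called. MYC, the gene of a transcription factor of cell growth that is often lowered by BET inhibitors, stood at 89.3 and 146 CPM in E7_ACT and 34.4 and 29.5 CPM in WNT_CPI_ACT (log2 fold change -1.79, SE 0.27, adjusted p = 0.000695), lower in both WNT_CPI_ACT libraries. At 24 h it was higher in WNT_CPI than in E7, by 1.18 (adjusted p = 0.00307). JUN, an AP-1 factor, changed sides in the same way, from 1.51 at 24 h to -2.43 at 48 h, where it stood at 11 and 14.8 CPM in E7_ACT and 1.63 and 3.21 CPM in WNT_CPI_ACT. For both genes the 2 differences differed by the test (adjusted p = 0.000244 and 0.000689). Of 20 MYC network and growth genes tested, 7 were lower and 1 higher at 48 h (1 lower without the block, 4 without WNT_CPI_ACT replicate 2 and 3 without E7_ACT replicate 2). Of 16 immediate early genes 7 were lower and 1 higher (1 lower without the block, 3 without WNT_CPI_ACT replicate 2, 4 without E7_ACT replicate 1 and 3 without E7_ACT replicate 2).

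Targets of p53 rose more often than they fell: 12 of 19 rose and none fell, with a median of 0.51, and without the block 5 rose. CCNG1, a cyclin that p53 induces, stood at 401 and 365 CPM in E7_ACT and 657 and 690.5 CPM in WNT_CPI_ACT (log2 fold change 0.82, SE 0.07, adjusted p = 2.68e-05). ZMAT3, an RNA-binding target of p53, stood at 21.1 and 18 CPM in E7_ACT and 47.3 and 62.8 CPM in WNT_CPI_ACT (log2 fold change 1.47, SE 0.19, adjusted p = 0.000239). MDM2, which degrades p53, rose by 0.56 and BTG2, an antiproliferative gene, by 2.37 on the log2 scale. CDKN1A, the cell cycle inhibitor p21, stood at 3.69 and 15.2 CPM in E7_ACT and 15.1 and 61.4 CPM in WNT_CPI_ACT (log2 fold change 2.01, SE 0.42, adjusted p = 0.00451), higher within each pair but overlapping between groups, and it was not called without the block (adjusted p = 0.308). Cholesterol synthesis genes showed small rises: 13 of 19 rose and none fell, with a median of 0.38, but none was called without the block. Without WNT_CPI_ACT replicate 1, 6 were called, and without E7_ACT replicate 1, 5. LSS, which makes lanosterol, stood at 214 and 253 CPM in E7_ACT and 344 and 372 CPM in WNT_CPI_ACT (log2 fold change 0.62, SE 0.09, adjusted p = 0.000382; adjusted p = 0.0558 without the block).

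Cell cycle lists moved little. Of 16 S phase genes tested, 5 rose and 1 fell, and in the G2/M list 7 of 18 rose and 1 fell, with medians of 0.12 and 0.26; without the block 2 and 1 rose. The S phase median was 0.024 without WNT_CPI_ACT replicate 1. In the G2/M list 4 rose when any library but WNT_CPI_ACT replicate 2 was left out. TYMS, the thymidylate synthase, had the largest S phase rise (34.5 and 33 CPM in E7_ACT and 100.3 and 90.0 CPM in WNT_CPI_ACT; log2 fold change 1.49, SE 0.09, adjusted p = 2.07e-06).

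Smaller signalling lists were mixed. Of 15 BMP target genes, 7 fell and 4 rose. ID1, a helix-loop-helix inhibitor induced by BMP, stood at 86.6 and 111 CPM in E7_ACT and 9.99 and 13.7 CPM in WNT_CPI_ACT (log2 fold change -3.08, SE 0.25, adjusted p = 1.49e-05). ID2, of the same family, moved the other way, at 18.4 and 13.5 CPM in E7_ACT and 93.8 and 95.3 CPM in WNT_CPI_ACT (log2 fold change 2.59, SE 0.11, adjusted p = 2.98e-07). GATA2 and GATA3, zinc finger factors of trophoblast and amnion, had few reads and fell (1.13 and 1.17 CPM in E7_ACT and 0.023 and 0.0486 CPM in WNT_CPI_ACT for GATA2; 1.61 and 0.813 CPM in E7_ACT and 0.0689 and 0.0728 CPM in WNT_CPI_ACT for GATA3; adjusted p = 8.13e-05 and 0.00133), and the ligand BMP4 rose by 1.14. Without the block 5 BMP targets fell and 2 rose, and without E7_ACT replicate 1, 4 fell and 2 rose. Of 18 FGF and MAPK feedback genes, 5 rose and 3 fell (4 and 1 without the block, and 3 and 1 without E7_ACT replicate 1). DUSP4, a MAP kinase phosphatase, rose by 1.92 and SPRY1, a feedback inhibitor of receptor tyrosine kinases, fell by 1.36 on the log2 scale. Of 15 Notch genes 2 rose and 3 fell, and without the block 1 rose and 1 fell. HEY1, a Notch target, stood at 10.3 and 11.5 CPM in E7_ACT and 0.735 and 1.07 CPM in WNT_CPI_ACT (log2 fold change -3.63, SE 0.44, adjusted p = 0.000153). Of 16 retinoid genes 5 rose and 4 fell (4 and 2 without the block). The binding protein CRABP2 (15.9 and 40.8 CPM in E7_ACT and 103 and 296 CPM in WNT_CPI_ACT; log2 fold change 2.79, SE 0.36, adjusted p = 0.000255) and the retinol receptor STRA6 (6.58 and 9.4 CPM in E7_ACT and 50.9 and 114 CPM in WNT_CPI_ACT; log2 fold change 3.37, SE 0.43, adjusted p = 0.000239) were among the rises.

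Markers of other cell types were at low or mixed levels. The trophoblast and amnion list had 3 of 12 tested members higher and 3 lower, with summed CPM of 15.8 and 21.5 in E7_ACT and 32.1 and 29.9 in WNT_CPI_ACT. The endothelium and blood list had none of 8 called, with sums of 107 and 163 and 193 and 158. The fibroblast list had 1 of 7 higher and 3 lower (1 lower without the block), with sums of 722 and 1066 and 514 and 632, and the neural crest list 3 of 14 higher and 4 lower (1 lower without the block), with sums of 250.3 and 256 and 125 and 196. In the fibroblast list THY1 held the most counts (23181 and 32117 in E7_ACT and 10044 and 14634 in WNT_CPI_ACT). COL1A2, the member called higher, held 2993 and 3256 in E7_ACT and 8692 and 6276 in WNT_CPI_ACT. COL1A1 held 2340 and 4617 in E7_ACT and 2706 and 4172 in WNT_CPI_ACT. COL3A1, LUM, DCN and FAP had 3 or fewer in each of these libraries. KDR and TEK held most counts of the endothelium and blood list. The part of these cell types in the differences above was not tested.

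The same day-1 treatment was measured before Activin A, at 24 h, in libraries that the 48 h comparison does not share. There 9869 of the 17793 genes were called (55.5%) between WNT_CPI and E7, 26.8% as higher and 28.7% as lower. Across 11996 genes of at least 5 CPM in a group, which are not independent replicates, the 24 h and 48 h log2 differences had a Pearson r of 0.496. Of the 2655 genes higher at 48 h, 1468 (55.3%) were also higher at 24 h, 352 (13.3%) were lower then and 835 (31.5%) were not called. Of the 3040 genes lower at 48 h, 1876 (61.7%) were also lower at 24 h and 305 (10.0%) were higher then. Seen from 24 h, 30.8% of 4760 higher genes and 36.7% of 5109 lower genes were called the same way at 48 h. The difference between the 2 differences was itself tested, and 5975 genes were called (33.6%), 1815 without the block. Of 3344 genes called the same way at both times, 866 had a smaller difference at 48 h by this test and 205 a larger one.

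Named genes showed each pattern. NANOG fell by 6.15 on the log2 scale at 24 h, from 71.7 and 113 CPM in E7 to 1.23 and 1.32 CPM in WNT_CPI, and by 1.54 at 48 h (difference of the differences 4.61, SE 0.28, adjusted p = 2.49e-06). CDH1 was higher in WNT_CPI at 24 h (0.56, adjusted p = 0.0032) and lower in WNT_CPI_ACT at 48 h (-1.83), and the differences differed (adjusted p = 1.03e-05). CLDN7 fell by 2.02 at 24 h and by 5.25 at 48 h. GJA5, a gap junction protein, stood at 3.68 and 7.36 CPM in E7 and 0.147 and 0.122 CPM in WNT_CPI at 24 h, and at 1.88 and 5.44 CPM in E7_ACT and 32.6 and 49.7 CPM in WNT_CPI_ACT at 48 h. It was thus lower at 24 h and higher at 48 h, with a difference of the differences of 8.92 (SE 0.43, adjusted p = 1.13e-06). GREM1, a BMP antagonist, went the other way, at 0.382 and 0.36 CPM in E7 and 6.47 and 8.18 CPM in WNT_CPI at 24 h and at 1.76 and 1.14 CPM in E7_ACT and 0.597 and 0.461 CPM in WNT_CPI_ACT at 48 h. The 48 h fall of GREM1 was not called without E7_ACT replicate 1 (adjusted p = 0.0606). APLNR stood at 1.67 and 1.49 CPM in WNT_CPI and its 24 h difference of 0.71 was not called (adjusted p = 0.27), against 6.25 at 48 h (adjusted p of the difference = 0.00028).

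**Figure D5:**
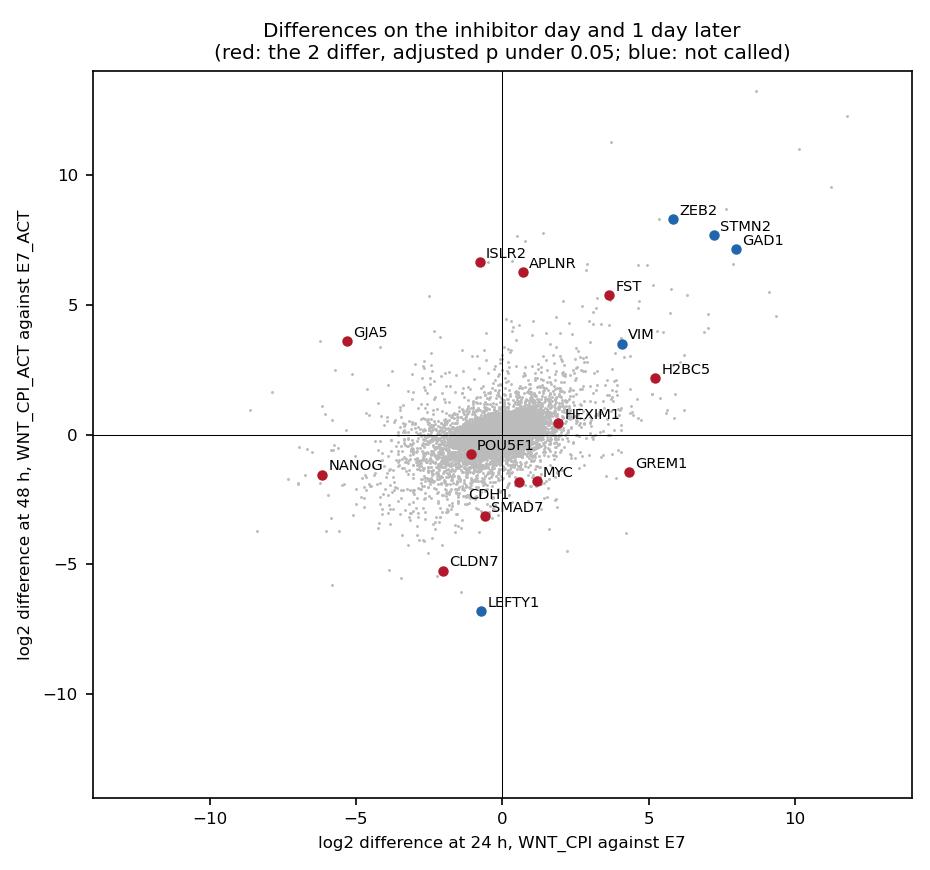
Log2 difference at 48 h between WNT_CPI_ACT and E7_ACT (vertical axis) against the log2 difference at 24 h between WNT_CPI and E7 (horizontal axis), one grey point per gene of at least 5 CPM in 1 of the 4 groups, with named genes coloured by whether their 2 differences differ. NANOG lies far to the left and little below 0, GJA5 at the upper left, MYC, CDH1 and GREM1 at the lower right, and GAD1, STMN2 and ZEB2 at the upper right.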

How the data were processed

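RNA-seq read counts per gene were used as the authors deposited them: raw counts per the file headers and values, made with featureCounts per the submitters' processing notes. The genome build, strand setting and versions are not given in the sources used here. The 2 tables, 1 per replicate number, share 27348 genes, of which 27322 matched RefSeq. Of 626 genes on chromosome 22, 625 had no count, so that chromosome is not described. E7_CPI replicate 1 was left out because its column does not follow its table's gene order, leaving 15 libraries of 36268324 to 43347733 counts in 8 groups. Every per-sample column of the RNA tables was mapped to a sample, and the ATAC-seq files were not used here.

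All 15 libraries were fitted together with edgeR 4.0.16 (R 4.3.3): filterByExpr, TMM scaling, the quasi-likelihood F-test, 2-sided, with replicate number as a block, and Benjamini-Hochberg adjustment over all genes tested. The block follows the same-numbered libraries deviating together: over 13976 genes, deviations from the group means correlated at 0.451 to 0.896 in all 21 pairs of groups (0.718 for WNT_CPI_ACT with E7_ACT). SE is the log2 fold change divided by the root of F. Ratios with 95% intervals (exact, for counting error only) replace fitted values where a group had few counts, and the floor was 3 counts per library. The fit was also run on simulated data, with the same dispersion for all genes and the same replicate shift in every group. Such data cannot show how the block behaves where replicates of some groups deviate unlike those of others. DESeq2 1.42.0 gave alternative size factors and an alternative test.

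Genes named were GAD1, STMN2 and LEFTY1, the 12 largest rises and 12 largest falls called with at least 5 CPM and both pairs agreeing in direction, the 4 largest of each sign for the 48 h minus 24 h difference, members of the 26 lists, and position neighbours. The members and lists were chosen with earlier results of these data known. The lists took no set test. Results of some genes that these rules name are not reported here.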

Additional observations from a re-analysis of the deposited data

Results flagged for a closer look

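For 19 of the genes with the largest differences, the 48 h difference between WNT_CPI_ACT and E7_ACT was another one than the 24 h difference between WNT_CPI and E7, by edgeR's test of the difference itself at an adjusted p under 0.05. By the same test 5975 of the 17793 genes tested were called (33.6%). MAGEB17, GDF3, CYP26A1, GJA5, HPCAL4, GREM1 and GADD45B were picked by this test, so their passing it was fixed in advance. Values are the 48 h minus the 24 h log2 difference, and no explanation was tested. Among the largest such values were those of MAGEB17 (9.83), GDF3 (9.55), CYP26A1 (9.50), which degrades retinoic acid, and GJA5 (8.92) upward, and HPCAL4 (-6.71), GREM1 (-5.76) and GADD45B (-5.55) downward. GDF3 and MAGEB17 had 0 and 2 counts in the WNT_CPI libraries at 24 h and CYP26A1 had 0 and 3, so the size of these values is imprecise. At 48 h CYP26A1 stood at 5.35 and 2.82 CPM in E7_ACT and 34.5 and 0.0728 CPM in WNT_CPI_ACT, lower without WNT_CPI_ACT replicate 1 (-5.43, adjusted p = 0.00169) and higher without WNT_CPI_ACT replicate 2 (2.85, adjusted p = 0.000593). MAGEB17 at 2.27 and 2.31 CPM in E7_ACT and 54.6 and 7.48 CPM in WNT_CPI_ACT; the MAGEB17 rise at 48 h was 1.66 without WNT_CPI_ACT replicate 1 and not called without E7_ACT replicate 1 (adjusted p = 0.0717). GADD45B stood at 1.62 and 2.56 CPM in E7 and 27.4 and 34 CPM in WNT_CPI at 24 h, and at 6.62 and 7.98 CPM in E7_ACT and 2.59 and 1.89 CPM in WNT_CPI_ACT at 48 h. Its 48 h fall was not called without the block (adjusted p = 0.121), without WNT_CPI_ACT replicate 2 (0.202), E7_ACT replicate 1 (0.126) or E7_ACT replicate 2 (0.121). HPCAL4 stood at 0.386 and 0.839 CPM in E7_ACT and 0 and 0.0486 CPM in WNT_CPI_ACT at 48 h, a ratio of 25.7-fold (95% counting interval 6.74 to 218).

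Among the leading rises at 48 h, ISLR2 (7.43), OLIG3 (7.14) and IRX1 (6.69) had larger differences at 48 h than at 24 h. Among the leading falls, the 48 h difference was the lower one for MMP9 (-4.66), CLDN7 (-3.23), BICDL2 (-3.22), CNTN2 (-3.20), RASGRF2 (-2.21), TMEM151B (-2.06), CRYBG1 (-2.01), IQSEC2 (-1.43) and OVOL2 (-1.04). These rises and falls were picked for their large 48 h differences, and the 48 h difference is a term of each value given. The choice itself therefore favours the signs given, and no separate result is drawn from them.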

How the results depend on the processing

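Without the block, 1894 genes were called for WNT_CPI_ACT against E7_ACT, 648 for WNT_CPI_ACT against WNT_ACT, 379 for WNT_ACT against E7_ACT, 5283 for WNT_CPI against E7 and 1815 for the 48 h minus the 24 h difference. Leaving out 1 library at a time gave 3472 to 4482, 1773 to 3285, 532 to 1856, 7724 to 8068 and 4469 to 5211 calls for these in the same order. Tested against a log2 fold change of 1, 979 genes were called for WNT_CPI_ACT against E7_ACT. DESeq2 size factors (5647), no filter on low counts (5383), a filter of 1 CPM (5338), library totals alone (5672, chosen after seeing the data), all 16 libraries (4459), the compared groups alone (4664) and the DESeq2 Wald test (5699) stayed within 1.5 times the 5695 calls. The log2 fold change of CER1, not called, was positive without the block (1.68), with the filter of 1 CPM (0.012), with library totals alone (0.015) and with DESeq2's Wald test (0.626), and ran from -11.49 (no count left in WNT_CPI_ACT) to 1.60 over the fits that left out 1 library. Over the same fits the values of GDF3 ran from -0.913 to 1.89, CYP26A1 from -5.43 to 2.85, FOXA2 from -1.32 to 4.18, MIXL1 from -0.438 to 3.62 and TLK1 from -0.172 to 0.169, all lowest without WNT_CPI_ACT replicate 1. Those of GORASP2 ran from -0.056 to 0.168, PODXL from -0.284 to 0.318 and LIN28A from -0.041 to 0.202. The causes were not tested. With 2 replicates a group, differences of genes with few counts or unlike replicates were measured imprecisely.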
